A study of Mus musculus with 2 samples.

Results

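The miR-15/16 family is a set of microRNAs (miRNAs) that carry the same or nearly the same seed, the short stretch near the 5′ end through which a miRNA recognises its targets. Its 10 members described here were taken by family and by genomic locus from a table of 1915 mature mouse miRNA names. They are the 5p arms mmu-miR-15a-5p, mmu-miR-15b-5p, mmu-miR-16-5p, mmu-miR-195a-5p, mmu-miR-322-5p and mmu-miR-503-5p, and the 3p arms mmu-miR-15a-3p, mmu-miR-16-1-3p, mmu-miR-15b-3p and mmu-miR-16-2-3p. The 3p arms were included because they tell apart the Dleu2 locus, which gives rise to miR-15a and miR-16-1, from the Smc4 locus, which gives rise to miR-15b and miR-16-2.

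Small RNA libraries were made from unstimulated bone marrow-derived macrophages (BMDMs) of wild type C57/BL6 mice, 8 weeks of age and male per the study's methods, with pooling of animals not stated. BMDMs are macrophages grown in culture from bone marrow cells, here in medium conditioned by L cells, a fibroblast line that secretes macrophage colony-stimulating factor. The table holds 2 libraries of this single condition, given as biological replicates 1 and 2, so there were no groups to contrast. Replicate 1 held 7322969 miRNA counts in total and replicate 2 held 8094314, and levels are given as RpM, the count of a miRNA divided by the total of its library and multiplied by 1000000.

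A miRNA hairpin is cut into a pair of strands, the 5p and the 3p arm, and usually the more abundant of them guides the silencing complex to messenger RNAs with matching sites. The miR-15/16 guides repress regulators of cell division and survival, among them cyclins and Bcl2, and the human counterpart of the Dleu2 locus is often deleted in chronic lymphocytic leukaemia. The hairpins of a cluster are transcribed together, and the hairpins inside Dleu2 and Smc4 are produced along with the transcripts of these host genes.

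The 5p sequences below show why the family is treated as a group, with the seed (bases 2 to 8) in capitals. They are RefSeq sequences on the GRCm38.p6 build, read 5′ to 3′, and all 10 members matched an entry there.

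mmu-miR-16-5p: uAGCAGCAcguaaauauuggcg
mmu-miR-15a-5p: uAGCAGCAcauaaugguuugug
mmu-miR-15b-5p: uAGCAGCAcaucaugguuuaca
mmu-miR-322-5p: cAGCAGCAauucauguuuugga
mmu-miR-195a-5p: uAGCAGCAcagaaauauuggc
mmu-miR-497a-5p: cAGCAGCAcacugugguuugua
mmu-miR-503-5p: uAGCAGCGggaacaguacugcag

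The seed of mmu-miR-16-5p was shared by the other 5p arms shown except mmu-miR-503-5p, which shared bases 2 to 7 only. mmu-miR-497a-5p is shown because it has the same seed and lies in a cluster with miR-195a. With positions counted from 1 at the 5′ end, mmu-miR-16-5p and mmu-miR-195a-5p differed at 2 of 21 bases (G10A and U11G), and mmu-miR-15a-5p and mmu-miR-15b-5p at 4 of 22 bases (A12C, G20A, U21C and G22A). The assignment of reads with mismatches was not stated, so counts of such close pairs are uncertain where the authors' counting could move reads between them.

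The 3p arms carry the comparison of the loci, because each is made from a single hairpin. They are shown with bases 2 to 8 in capitals.

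mmu-miR-15a-3p: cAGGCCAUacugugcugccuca
mmu-miR-16-1-3p: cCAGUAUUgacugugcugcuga
mmu-miR-15b-3p: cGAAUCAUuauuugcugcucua
mmu-miR-16-2-3p: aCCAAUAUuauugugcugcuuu

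No seed was shared among these 4 arms. The arms from corresponding hairpins, mmu-miR-15a-3p with mmu-miR-15b-3p and mmu-miR-16-1-3p with mmu-miR-16-2-3p, differed at 10 of 22 bases in each pair. All 4 held the letters UGCUGC, the reverse complement of part of the family seed. These letters stood in 4.43% of the 203 names of 3p arms that were tested between the libraries and had a sequence, these 4 included.

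Both miR-16 hairpins are shown with their arms in capitals, since their 5p arms are the same sequence and only their 3p arms differ.

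Mir16-1: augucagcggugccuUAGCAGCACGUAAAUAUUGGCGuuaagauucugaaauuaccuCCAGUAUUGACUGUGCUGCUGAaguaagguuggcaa
Mir16-2: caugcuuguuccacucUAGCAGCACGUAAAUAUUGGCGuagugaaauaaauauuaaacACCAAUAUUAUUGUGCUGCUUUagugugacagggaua

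A count of mmu-miR-16-5p therefore sums both loci and could not be divided between them. On GRCm38, Mir15a (chr14:61632027-61632110) and Mir16-1 (chr14:61631880-61631972) lie on the minus strand with 54 bases between them, in intron 4 of a 5-exon transcript of the non-coding gene Dleu2. An exon of a further Dleu2 transcript overlaps 13 bases of Mir16-1. Mir15b (chr3:69009772-69009835) and Mir16-2 (chr3:69009902-69009996) lie on the plus strand with 66 bases between them, in intron 5 of a 24-exon transcript of Smc4, the protein-coding gene of a condensin subunit.

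mmu-miR-16-5p was the most abundant member by a wide margin. It held 113597 counts (15512 RpM) in replicate 1 and 131294 counts (16220 RpM) in replicate 2, a mean of 15866 ± 501 RpM (SD, n = 2). It ranked 11 among all names in both libraries. In rank order it stood below mmu-let-7f-5p, mmu-miR-191-5p and mmu-let-7i-5p, at a mean of 26982, 22554 and 17090 RpM, and above mmu-miR-30e-5p, mmu-miR-26a-5p and mmu-miR-378a-3p, at 14575, 14492 and 13381 RpM. The 10 members together made up 1.88% of the counts of replicate 1 (95% exact binomial interval 1.87 to 1.89) and 1.93% of those of replicate 2 (1.92 to 1.94), with a mean of 1.90% ± 0.0347 (SD, n = 2). Of these counts, mmu-miR-16-5p held 82.6% in replicate 1 and 84.1% in replicate 2. These intervals and those that follow cover counting error only, since amplified reads that carry no molecular identifier cannot be taken as separate molecules, and levels of different miRNAs are read shares rather than molecule numbers because ligation and amplification favour some sequences.

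The next 3 guides lay within a narrow range. mmu-miR-15a-5p, the guide of the Dleu2 locus beside miR-16, was at 1223 RpM in replicate 1 and 1090 RpM in replicate 2. mmu-miR-15b-5p, its counterpart from the Smc4 locus, was at 1015 and 856 RpM. mmu-miR-322-5p, the counterpart of human miR-424 encoded on the X chromosome, was at 793 and 895 RpM. mmu-miR-15a-5p was the highest of these in both libraries, whereas mmu-miR-15b-5p and mmu-miR-322-5p exchanged places between the libraries and their means differed by 91.8 RpM, less than the larger SD of 112 RpM.

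The remaining guides were rare. mmu-miR-195a-5p was at 15.4 RpM (113 counts) in replicate 1 and 13.2 RpM (107 counts) in replicate 2. mmu-miR-503-5p was at 6.28 RpM (46 counts) and 7.66 RpM (62 counts), the lowest level of the family in both libraries. Both lay above the level of 3 counts, about the one-sided 95% upper limit for a count of 0, which was 0.410 RpM in replicate 1 and 0.371 RpM in replicate 2. No count was recorded in either library for 4 further names with the seed, mmu-miR-195b, mmu-miR-6342, mmu-miR-6353 and mmu-miR-6419, so that each was under these one-sided limits.

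The 3p arms of the Dleu2 and Smc4 loci together held 1.19% of the counts of the family in replicate 1 and 1.02% in replicate 2. mmu-miR-15b-3p was the most abundant of them, at 125 RpM (915 counts) in replicate 1 and 117 RpM (944 counts) in replicate 2. mmu-miR-16-1-3p was at 50.3 RpM (368 counts) and 29.9 RpM (242 counts). mmu-miR-16-2-3p was at 32.4 RpM (237 counts) and 23.5 RpM (190 counts). In contrast to both miR-16 arms, which were lower in replicate 2, mmu-miR-15a-3p was higher there, at 16.8 RpM (123 counts) in replicate 1 and 27.1 RpM (219 counts) in replicate 2.

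By mean level the family ran from mmu-miR-16-5p through mmu-miR-15a-5p, mmu-miR-15b-5p, mmu-miR-322-5p, mmu-miR-15b-3p, mmu-miR-16-1-3p, mmu-miR-16-2-3p, mmu-miR-15a-3p and mmu-miR-195a-5p to mmu-miR-503-5p. Among neighbours in this order, mmu-miR-15b-5p and mmu-miR-322-5p did not differ beyond their spread. The means of mmu-miR-16-1-3p and mmu-miR-16-2-3p differed by 12.2 RpM against a larger SD of 14.4 RpM, but both arms fell in replicate 2, and within each library mmu-miR-16-1-3p was the higher. mmu-miR-16-2-3p and mmu-miR-15a-3p exchanged places between the libraries. The means of mmu-miR-15a-3p and mmu-miR-195a-5p differed by 7.60 RpM against a larger SD of 7.25 RpM, and mmu-miR-15a-3p was the higher in both libraries. The largest step was that from mmu-miR-16-5p to mmu-miR-15a-5p, 12.7-fold in replicate 1 and 14.9-fold in replicate 2.

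**Figure D1:**
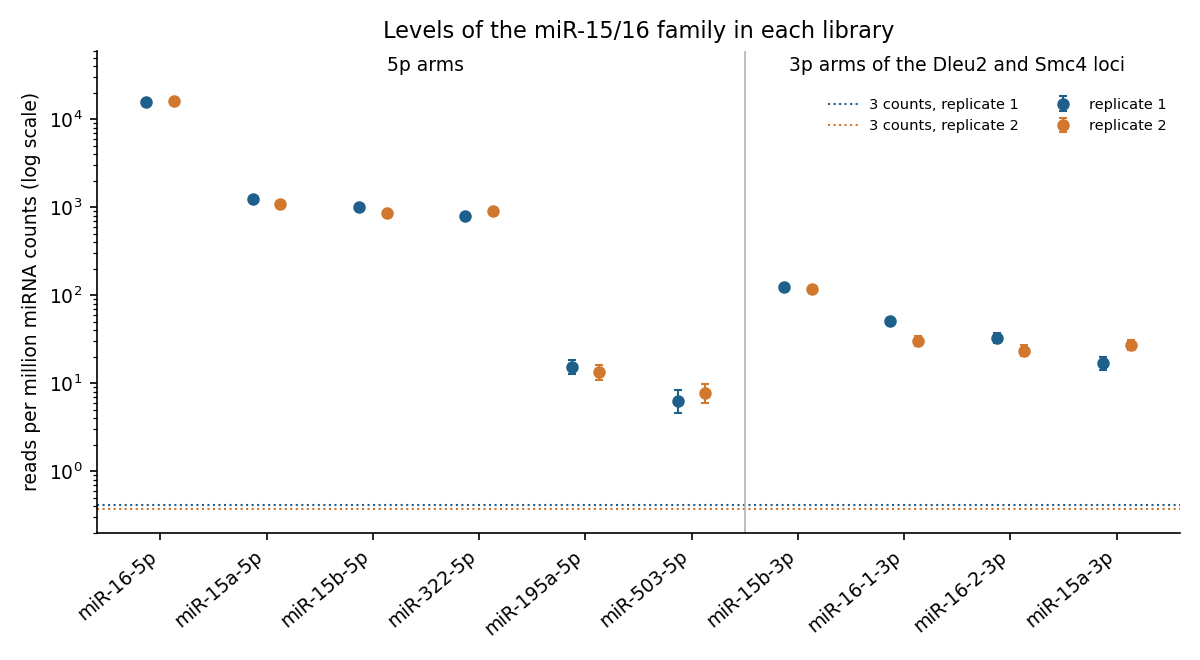
Level of each member in RpM (log axis) in replicate 1 (blue) and replicate 2 (orange), with 95% exact binomial intervals and, as dotted lines, the level of 3 counts in each library. mmu-miR-16-5p lies at 15512 and 16220 RpM, and mmu-miR-15a-3p is the 3p arm that is higher in replicate 2.

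The spread between the libraries was then set against counting error by Fisher's exact test for each of the 588 names that reached 10 counts over both libraries, with Benjamini-Hochberg adjustment over all of them at 0.05. This test compares the 2 libraries and not conditions, and in bulk RNA fewer cells of a type cannot be told apart from less RNA per cell. Of the 10 members, 7 differed between the libraries, where 44.2% of all names tested did so. Among them 3 were higher in replicate 2, against a background of 13.8%, and 4 were lower, against 30.4%. Calls rise with depth, and all 10 members had at least 100 counts over both libraries. Of the 326 names with that many counts 68.7% were called, 22.7% higher and 46.0% lower. The split of calls over all names depended on the scaling, with 81 higher and 179 lower by library totals, 122 and 137 by TMM, and 124 and 127 by DESeq2 size factors. Over all names the median log2 ratio (replicate 2 over replicate 1) was -0.16 by totals, and TMM and DESeq2 moved every log2 ratio up by 0.13 and 0.14. The DESeq2 size factor was 1 in both libraries, so the ratios by DESeq2 are those of raw counts, with no adjustment for the library totals. The median of the 10 members by totals was -0.13.

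The differences of the guides were small, however exactly they were counted. mmu-miR-16-5p was higher in replicate 2 by a log2 ratio of 0.06 by totals, which lay 0.23 above the median of all names (adjusted p = 1.1e-27, Fisher's exact test). mmu-miR-322-5p was higher by 0.17 (adjusted p = 3.1e-11, Fisher's exact test), or 0.34 above that median. mmu-miR-15b-5p had a log2 ratio of -0.24 (adjusted p = 2.3e-23, Fisher's exact test), or -0.08 relative to that median. These 3 calls held, in the same direction, with TMM and with DESeq2 size factors. mmu-miR-15a-5p had a log2 ratio of -0.17 by totals (adjusted p = 9.0e-14, Fisher's exact test), close to the median of all names, and its call was lost by TMM (adjusted p = 0.18, Fisher's exact test) and by DESeq2 size factors (adjusted p = 0.50, Fisher's exact test).

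Of the 3p arms, mmu-miR-15a-3p and mmu-miR-16-1-3p moved further than any guide under all 3 scalings, in opposite directions. mmu-miR-15a-3p had a log2 ratio of 0.69 (adjusted p = 6.0e-05, Fisher's exact test), higher in replicate 2 under all 3 scalings. mmu-miR-16-1-3p, from the neighbouring hairpin, had a log2 ratio of -0.75 (adjusted p = 1.2e-09, Fisher's exact test), lower in replicate 2 under all 3 scalings. These were the 2 members beyond 1.5-fold, a size reached by 33.0% of all names tested, and no member was beyond 2-fold, a size reached by 15.5%. mmu-miR-16-2-3p had a log2 ratio of -0.46 (adjusted p = 0.0028, Fisher's exact test), and this call was lost by DESeq2 size factors (adjusted p = 0.059, Fisher's exact test). mmu-miR-15b-3p was not called (log2 ratio -0.10 by totals, adjusted p = 0.25, Fisher's exact test), and its ratio changed sign to 0.03 by TMM and 0.05 by DESeq2 through the shift common to all names. The rare guides mmu-miR-195a-5p and mmu-miR-503-5p were not called, at log2 ratios of -0.22 and 0.29, where differences of this size were not detectable at their depth.

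**Figure D2:**
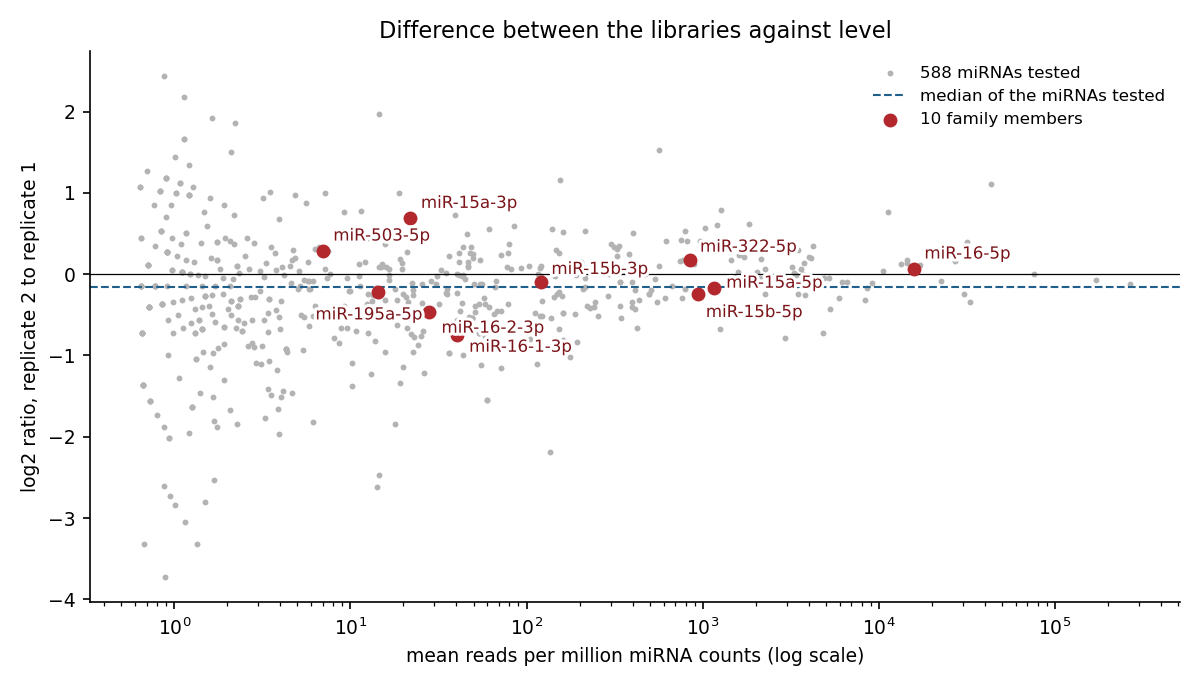
log2 ratio of replicate 2 to replicate 1, by library totals, against mean level in RpM (log axis) for the 588 names tested (grey) and the 10 family members (red), with the median of all names as a dashed line at -0.16. mmu-miR-15a-3p (0.69) and mmu-miR-16-1-3p (-0.75), arms of adjacent hairpins in Dleu2, lie on opposite sides, while mmu-miR-15b-3p changes sign when TMM or DESeq2 scaling is used.

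Locus against locus, the answer depended on which arms were compared. Ratios were formed within a library, so that library scaling cancelled. With 2 libraries an exact sign-flip permutation test cannot give a p below 0.5, so each ratio is given with its 95% exact binomial interval in each library. The ratio of mmu-miR-15b-3p (Smc4) to mmu-miR-15a-3p (Dleu2) was 7.44 in replicate 1 (6.16 to 9.05) and 4.31 in replicate 2 (3.72 to 5.02). The Smc4 arm was thus the higher in both libraries, with a mean log2 ratio of 2.50 ± 0.56 (SD, n = 2), and the intervals of the libraries did not overlap.

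The miR-16 arms gave the opposite order. The ratio of mmu-miR-16-2-3p (Smc4) to mmu-miR-16-1-3p (Dleu2) was 0.644 in replicate 1 (0.545 to 0.760) and 0.785 in replicate 2 (0.646 to 0.953), a mean log2 ratio of -0.49 ± 0.20 (SD, n = 2). The Dleu2 arm was the higher in both libraries, 1.55-fold and 1.27-fold, and both intervals lay below 1. The guide arms of miR-15 gave the same order as the miR-16 arms, with a ratio of mmu-miR-15b-5p to mmu-miR-15a-5p of 0.830 in replicate 1 (0.804 to 0.856) and 0.786 in replicate 2 (0.761 to 0.811). Their mean log2 ratio was -0.31 ± 0.06 (SD, n = 2), a smaller spread than that of either pair of 3p arms. A ratio of the summed 3p arms of each locus was added after seeing the data. The Smc4 sum, mostly mmu-miR-15b-3p, was 2.35 times the Dleu2 sum in replicate 1 (2.11 to 2.61) and 2.46 times in replicate 2 (2.21 to 2.75). These are counts of 3p arms only, and the output of each locus as a whole was not measured.

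The partners within a locus also stood in different ratios. In Smc4, mmu-miR-15b-3p exceeded mmu-miR-16-2-3p 3.86-fold in replicate 1 (3.34 to 4.47) and 4.97-fold in replicate 2 (4.25 to 5.84). In Dleu2, the ratio of mmu-miR-15a-3p to mmu-miR-16-1-3p was 0.334 in replicate 1 (0.270 to 0.411) and 0.905 in replicate 2 (0.750 to 1.09). The miR-15 arm was therefore the more abundant partner in Smc4 in both libraries. In Dleu2 the miR-16 arm was the more abundant in replicate 1, and in replicate 2 the partners did not differ beyond counting error. The Dleu2 ratio moved 2.71-fold between the libraries and had the widest spread of the 17 ratios computed, a log2 SD of 1.02 around a mean of -0.86 (n = 2). The Smc4 ratio moved less, 1.29-fold, but also beyond counting error (95% interval of the log2 change 0.0589 to 0.669), with a mean log2 ratio of 2.13 ± 0.26 (SD, n = 2).

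**Figure D3:**
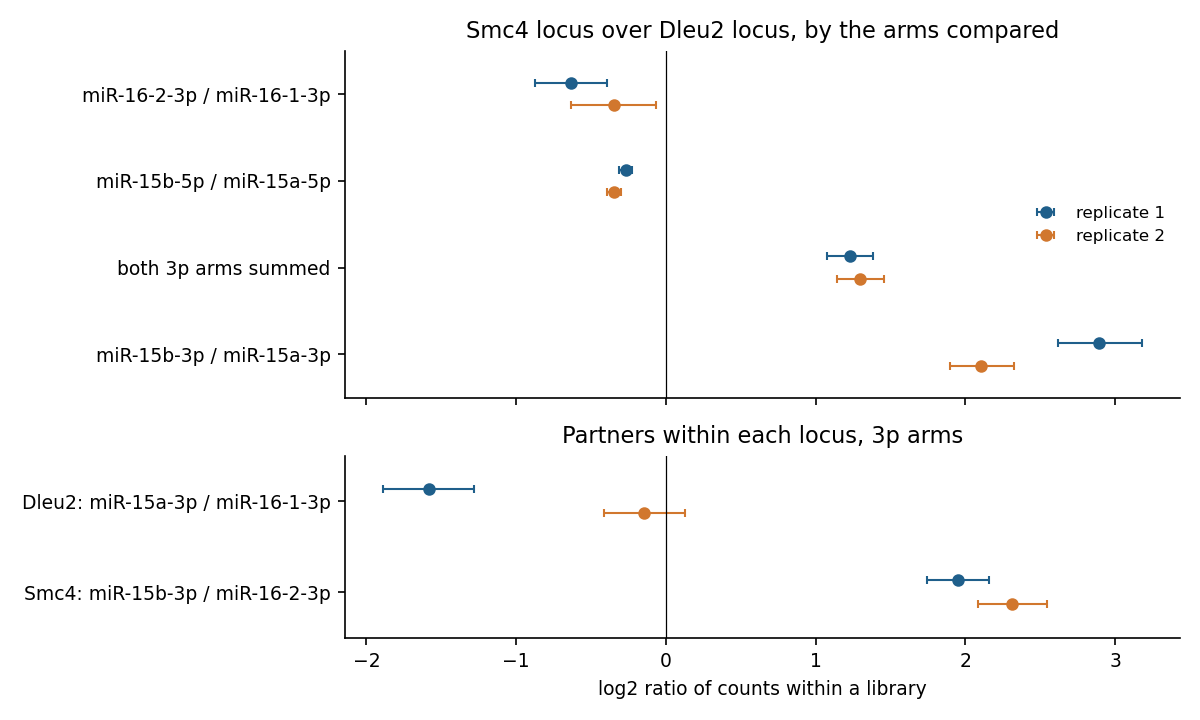
log2 ratios of counts within replicate 1 (blue) and replicate 2 (orange) with 95% exact binomial intervals, for the Smc4 locus over the Dleu2 locus by the arms compared (upper) and for the 3p partners within each locus (lower). The miR-16 3p arms and the miR-15 guides lie below 0 and the miR-15 3p arms above 0 in both libraries, and the Dleu2 partners differ most between the libraries (ratios of 0.334 and 0.905).

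Across the guides of both loci, mmu-miR-16-5p exceeded the sum of mmu-miR-15a-5p and mmu-miR-15b-5p 6.93-fold in replicate 1 (6.82 to 7.05) and 8.33-fold in replicate 2 (8.20 to 8.47). Each miR-15 guide is encoded beside a miR-16 hairpin, and in both libraries the miR-16 guide was the more abundant. The intervals of the libraries did not overlap, and the mean log2 ratio was 2.93 ± 0.19 (SD, n = 2). This order of the partners was unlike that of the Smc4 3p arms, where the miR-15 arm was the more abundant.

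The hairpins differed in how strongly the 5p arm prevailed. For miR-16, whose hairpins were pooled, the 5p arm held 99.5% of the counts of both arms in replicate 1 and 99.7% in replicate 2. For miR-15a it held 98.6% and 97.6%. For miR-15b it held 89.0% and 88.0%, so that its 3p arm took a larger part than that of miR-15a in both libraries, by far more than the spread. Among 177 hairpin names that reached 100 counts over both arms and libraries, 99 had most counts on the 5p arm, and the more abundant arm held a median of 97.2%. The prevailing arm held a smaller share than that of miR-15a in 54.8% of these names, than that of miR-15b in 29.4%, and than that of miR-16 in 78.0%.

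The ratio of arms varied between the libraries for the Dleu2 hairpin and for miR-16. mmu-miR-15a-5p exceeded mmu-miR-15a-3p 72.8-fold in replicate 1 (60.9 to 87.7) and 40.3-fold in replicate 2 (35.2 to 46.3). mmu-miR-16-5p exceeded the sum of its 3p arms 188-fold in replicate 1 (173 to 204) and 304-fold in replicate 2 (277 to 335). The change went in opposite directions, a log2 change from replicate 1 to replicate 2 of -0.85 for miR-15a and 0.69 for miR-16. Among 90 hairpin names with at least 100 counts on each arm, the median size of this change was 0.31, and 8 changed by at least as much as miR-15a and 17 by at least as much as miR-16, both counts including the hairpin itself. The ratio of mmu-miR-15b-5p to mmu-miR-15b-3p was steadier, at 8.12 in replicate 1 (7.58 to 8.71) and 7.34 in replicate 2 (6.86 to 7.87).

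**Figure D4:**
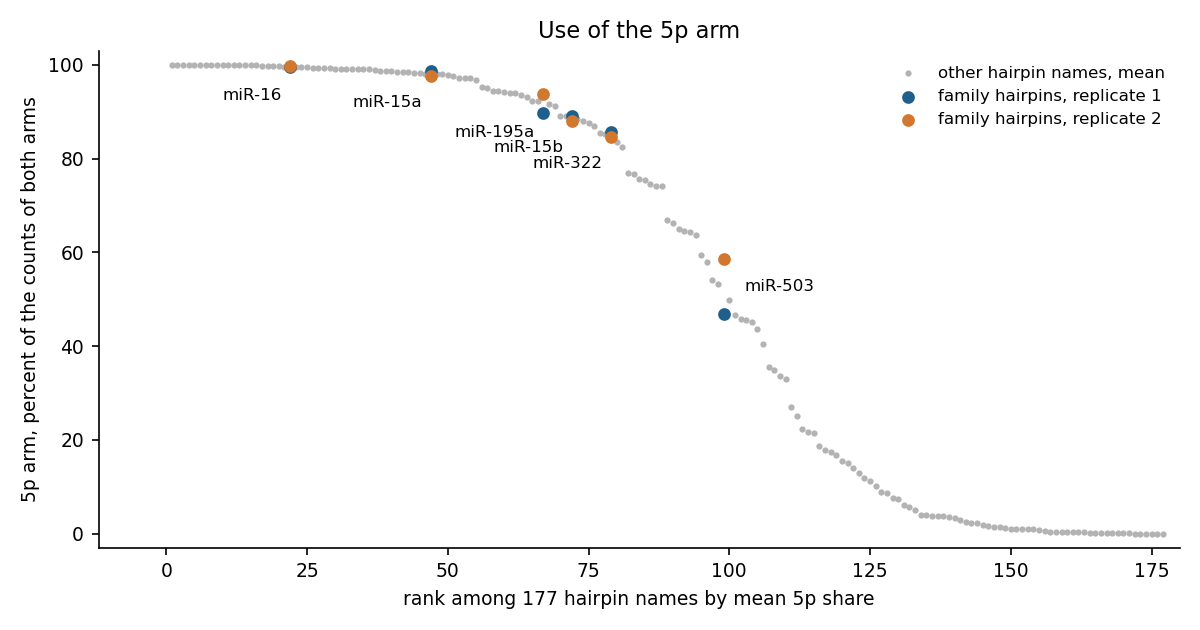
Percent of the counts of both arms that fell on the 5p arm, for 177 hairpin names ranked by their mean over both libraries (grey), with the family hairpins in replicate 1 (blue) and replicate 2 (orange). Of the family hairpins, miR-16 (99.5% and 99.7%) and miR-15a (98.6% and 97.6%) have the highest 5p shares. miR-15b (89.0% and 88.0%) and miR-322 (85.7% and 84.7%) lie lower, and miR-503 near equal use of its arms.

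The X chromosome cluster holds miR-322 and miR-503 and, further along the same strand, miR-351, miR-542, miR-450a and miR-450b. Mir322 (chrX:53054255-53054349) and Mir503 (chrX:53053984-53054054) lie on the minus strand with 200 bases between them, and no gene of another type overlapped them on that strand. mmu-miR-322-5p exceeded mmu-miR-503-5p 126-fold in replicate 1 (94.5 to 173) and 117-fold in replicate 2 (91.0 to 152). This was the widest gap between adjacent hairpins of the family, and it was the same in both libraries within counting error (mean log2 ratio 6.92 ± 0.08, SD, n = 2). The arms of miR-503 were nearly equal, with 46 counts of 5p and 52 of 3p in replicate 1 and 62 and 44 in replicate 2, and the ratio of 5p to 3p, 0.885 (0.582 to 1.34) and 1.41 (0.942 to 2.12), lay on different sides of 1. For miR-322 the 5p arm held 85.7% and 84.7% of the counts of both arms.

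The most abundant miRNA of the X cluster was not a member of the family. mmu-miR-351-5p, which has the seed of mmu-miR-125a-5p, was at 2200 RpM in replicate 1 and 2303 RpM in replicate 2. It exceeded mmu-miR-322-5p 2.78-fold (2.69 to 2.86) and 2.57-fold (2.51 to 2.65). mmu-miR-450b-5p was at 193 and 214 RpM, mmu-miR-450a-5p at 140 and 168 RpM, and mmu-miR-542-3p, the prevailing arm of its hairpin, at 113 and 167 RpM. Of the 13 names of the cluster 11 were tested, and 6 were called between the libraries, all of them higher in replicate 2 under totals, TMM and DESeq2 scaling. Of all names tested 44.2% were called by totals, and 13.8% were higher by totals, 20.7% by TMM and 21.1% by DESeq2. All 6 called names had at least 100 counts over both libraries. Among the 326 names with that many counts, 68.7% were called by totals and 22.7% were higher. The median log2 ratio of the 11 names by totals was 0.17, against -0.16 over all names tested.

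**Figure D5:**
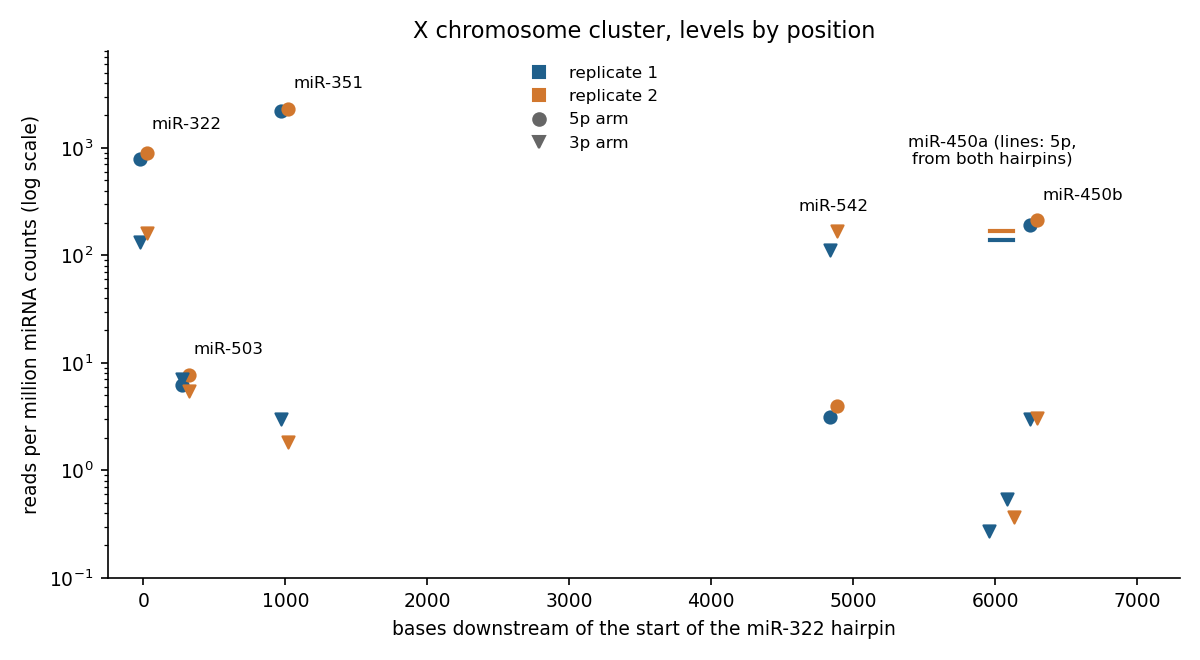
Level in RpM (log axis) of the arms of the X chromosome cluster against the distance in bases from the start of the miR-322 hairpin, with circles for 5p arms, triangles for 3p arms, and lines for mmu-miR-450a-5p, which comes from both miR-450a hairpins. mmu-miR-503-5p, 295 bases from the start of miR-322, lies 126-fold and 117-fold below mmu-miR-322-5p, and mmu-miR-450a-2-3p, at 0 counts in replicate 2, has a single point.

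The cluster on chromosome 11 was low throughout. Mir497 (chr11:70234717-70234800) and Mir195a (chr11:70235042-70235135) lie on the plus strand with 241 bases between them. mmu-miR-497a-5p, which has the family seed, was at 17.5 RpM (128 counts) in replicate 1 and 14.1 RpM (114 counts) in replicate 2. It did not differ from mmu-miR-195a-5p beyond counting error, with a ratio of 1.13 (0.873 to 1.47) and 1.07 (0.811 to 1.40). The other arms held 13 and 7 counts for mmu-miR-195a-3p and 1 count in each library for mmu-miR-497a-3p. mmu-miR-195a-5p was outnumbered by mmu-miR-16-5p 1005-fold in replicate 1 (836 to 1220) and 1227-fold in replicate 2 (1015 to 1497), and whether reads of mmu-miR-16-5p entered its count was not tested. mmu-miR-195b, which had 0 counts, differed from mmu-miR-195a-5p at 3 of 21 bases and from mmu-miR-16-5p at 6 of 22.

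miRNAs that mark cell types were compared with the label of the cells. All 5 myeloid names had counts, with a sum of 329283 and 294810 RpM in the libraries. Most of this sum came from mmu-miR-21a-5p, at 279747 and 257096 RpM, which the study also describes in endothelial and smooth muscle cells. Among the other myeloid names mmu-miR-223-3p was at 6053 and 4485 RpM and mmu-miR-142a-3p at 6009 and 3626 RpM. mmu-miR-16-5p is also abundant in red blood cells, so the erythroid names stand beside it. Of 4, 3 had counts in both libraries, with sums of 542 and 456 RpM that came almost wholly from mmu-miR-486a-5p, whereas the defining mmu-miR-451a was at 0.956 and 0.988 RpM and mmu-miR-144-3p at 2 counts and 0 counts. The fibroblast and smooth muscle names summed to 232 and 153 RpM, led by mmu-miR-143-3p, and the endothelial and megakaryocyte names to 62.5 and 46.2 RpM, led by mmu-miR-126a-5p. The lymphoid mmu-miR-150-5p was at 27.6 and 10.9 RpM. By totals all 5 myeloid names, mmu-miR-486a-5p and mmu-miR-150-5p were called lower in replicate 2. So were 3 of the 6 fibroblast, smooth muscle, endothelial and megakaryocyte names (mmu-miR-143-3p, mmu-miR-214-3p and mmu-miR-126a-5p). The family members called lower by totals were mmu-miR-15a-5p, mmu-miR-15b-5p, mmu-miR-16-1-3p and mmu-miR-16-2-3p. Of all names tested 30.4% were called lower, and 46.0% of those with at least 100 counts. The log2 ratio of mmu-miR-21a-5p, -0.12 by totals, changed sign to 0.01 by TMM and 0.02 by DESeq2. The part of the cell type names in the differences between the libraries was not tested. The epithelial mmu-miR-205-5p had 1 count in replicate 1 and 0 in replicate 2. Other miRNAs of epithelial cells, chosen after their values were seen, had counts in both libraries, with 496 and 827 for mmu-miR-200b-3p, 433 and 348 for mmu-miR-141-3p, 140 and 162 for mmu-miR-429-3p, 114 and 87 for mmu-miR-200c-3p, and 71 and 76 for mmu-miR-200a-3p. By totals their calls went in both directions, with mmu-miR-200b-3p higher in replicate 2 (log2 ratio 0.59), mmu-miR-141-3p and mmu-miR-200c-3p lower (-0.46 and -0.53), and the others not called. The muscle names held 0 and 6 counts, the neuronal names 12 and 11 counts, both from mmu-miR-9-5p, and the hepatic mmu-miR-122-5p had none.

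Likeness to mmu-miR-16-5p could be measured only as the distance between log2 ratios of the same 2 libraries. Among the 169 other names that reached 1000 counts over both libraries, the nearest were mmu-miR-351-5p of the X cluster, mmu-miR-34c-5p and mmu-miR-26b-5p, at log2 ratios of 0.07, 0.06 and 0.06 against 0.06 for mmu-miR-16-5p. Over 2 libraries this is a description of a single difference and not of a pattern.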

How the data were processed

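Small RNA libraries of 2 biological replicates of unstimulated BMDMs were used. After trimming, the authors aligned reads to mouse miRBase stem-loops with Bowtie 0.12.7 and deposited raw read counts per mature miRNA name without normalization. The miRBase release, the mismatches allowed and the treatment of reads with several matches were not given in the sources used here. The submitters' processing notes also name DESeq2, with no role. From these counts, RpM, ratios within a library and exact binomial intervals were computed in Python 3.11.15 with SciPy 1.17.1, pandas 2.3.3 and matplotlib 3.10.9. Alternative scalings came from edgeR 4.0.16 (TMM) and DESeq2 1.42.0 in R 4.3.3. The DESeq2 size factors came out as 1 in both libraries, which leaves the counts unscaled. Fisher's exact tests were two-sided. Hairpin positions came from GENCODE M21.

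Members, lists and tests were chosen with earlier results of these data known. Named miRNAs were the 10 members, the other arms and cluster partners, names with the seed of miR-16-5p, its 3 neighbours by level on each side, the 3 names with the nearest log2 ratio, and markers of myeloid, erythroid, lymphoid, epithelial, endothelial and megakaryocyte, fibroblast and smooth muscle, muscle, liver and neuronal cells. Alternatives were pooled reads, other count minimums, TMM and DESeq2 scaling, totals without miR-21a-5p, a 1.5-fold minimum, 1 added count, and each library left out. Added after seeing the data were 6 further ratios, the scalings of single members, and 5 names of the miR-200 family.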

Additional observations from a re-analysis of the deposited data

How the results depend on the processing

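The share of the 10 members moved by less than 1 SD with only names at 10 or more counts in both libraries and with TMM and DESeq2 scaling, and it was 2.60% when miR-21a-5p was left out of the total, since that total is smaller. The number of members that differed between the libraries was 7 with no minimum (24.4% of all names called) and with a minimum of 100 counts (68.7%), 6 by TMM (44.0%) and 5 by DESeq2 size factors (42.7%), and 2 when a difference beyond 1.5-fold was also asked for (19.0%). It could not be recomputed with a library left out. mmu-miR-15b-3p, not called under any scaling, reversed from a log2 ratio of -0.10 to 0.0300 by TMM and 0.0450 by DESeq2, since these scalings move every log2 ratio up by 0.13 and 0.14.

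With 1 count added, all 17 ratios (11 planned, 6 added after seeing the data) kept their direction and lay within 1 SD. Pooled reads and single libraries cannot lie beyond 1 SD of a mean of 2 libraries, by construction, so only their direction is informative, and it turned for the 5p to 3p ratio of miR-503, which ran from 0.885 to 1.41 over the single libraries. In 6 ratios the libraries differed over 1.5-fold, so that their mean lies between unlike values, most of all for miR-15a-3p to miR-16-1-3p. No pairing of libraries between groups was possible because there was a single group.

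Ratios between arms were not tested over replicates, and intervals cover counting error alone. miR-503 and miR-195a rest on about 100 counts or fewer per library. Reads of miR-16-5p cannot be assigned to a locus.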
